A study of Mus musculus with 15 samples.

Results

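The 10 genes described here encode proteins of the hepatic lipid droplet and of its breakdown: the perilipins Plin2, Plin4 and Plin5, the CIDE proteins Cidea and Cidec, the lipase Pnpla2 with its inhibitor G0s2 and its paralog Pnpla3, and the fatty acid proteins Cd36 and Fabp4. They were chosen by symbol among the 55450 Ensembl gene IDs of the count table. The rule used no measured values, but earlier results of these data were known when the genes were chosen. Of the 10 genes, 9 passed a filter on low counts that left 15808 genes for testing, and Cidea did not. RNA was taken from whole liver of 15 female C57BL/6 mice, 5 per group, which all received corn oil by daily gavage. By the labels, Adult mice were 6 months old and Old mice 22 months old, both given the oil alone, and PDX mice were 22 months old and were given protectin DX (PDX, a lipid mediator made from docosahexaenoic acid) at 30 ng/g of body weight in the oil. These are ages at baseline, before acclimation and testing that preceded gavage. Gavage lasted 9 weeks by the treatment protocol and 8 weeks by the series' design text. The comparison of Old with Adult mice asks what aging alters, and that of PDX with Old mice asks what the treatment alters. No Adult mice received PDX, so an effect of PDX at a young age was not measured.

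Hepatocytes keep triglyceride in droplets whose surface is coated by perilipins. Plin2 is the ubiquitous coat protein, Plin5 belongs to tissues that burn fatty acids and tethers droplets to mitochondria, and Plin4 coats droplets mainly in adipocytes and muscle. Cidea and Cidec promote fusion and growth of droplets and are abundant in fat and in steatotic liver. Breakdown begins with adipose triglyceride lipase (ATGL), the product of Pnpla2, which G0s2 inhibits by direct binding. Pnpla3 is a droplet protein of the same family that is induced by feeding and can oppose ATGL. Cd36 takes up long-chain fatty acids at the cell surface, and Fabp4 carries them inside adipocytes, macrophages and capillary endothelium. Many of these genes are targets of the nuclear receptors PPAR alpha or PPAR gamma in liver.

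Sequences upstream of the start site are given for the 5 members on which the results turn: Plin2 as the most abundant, Pnpla2 and G0s2 as the lipase and its inhibitor, and Pnpla3 and Cd36 as the members called against Adult mice once 2 Old mice are left out. Each is the 250 bases before the start in the RefSeq annotation of GRCm38.p6, read 5′ to 3′ on the strand of the gene. Capitals mark exact matches, on either strand, to AGGTCA (a nuclear receptor half-site), GTAAACA (a forkhead motif), CACGTG (an E-box), GGGCGG (a GC box) or TGACGTCA (a cAMP response element), and no matches overlapped. The Cd36 start lies inside the span of the gene in GENCODE M21, which holds starts further upstream.
Plin2, chr4:86670060-86670309, - strand: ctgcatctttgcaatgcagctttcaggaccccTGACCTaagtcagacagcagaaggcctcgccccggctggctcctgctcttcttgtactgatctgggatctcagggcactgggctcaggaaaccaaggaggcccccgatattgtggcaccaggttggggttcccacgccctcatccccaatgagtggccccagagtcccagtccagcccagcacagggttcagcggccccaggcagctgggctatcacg
Pnpla2, chr7:141454938-141455187, + strand: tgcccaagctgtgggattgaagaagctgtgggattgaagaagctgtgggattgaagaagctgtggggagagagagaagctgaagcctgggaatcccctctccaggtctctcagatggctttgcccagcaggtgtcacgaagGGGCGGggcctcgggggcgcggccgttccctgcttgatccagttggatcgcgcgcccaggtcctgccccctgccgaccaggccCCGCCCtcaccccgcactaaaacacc
G0s2, chr1:193273189-193273438, - strand: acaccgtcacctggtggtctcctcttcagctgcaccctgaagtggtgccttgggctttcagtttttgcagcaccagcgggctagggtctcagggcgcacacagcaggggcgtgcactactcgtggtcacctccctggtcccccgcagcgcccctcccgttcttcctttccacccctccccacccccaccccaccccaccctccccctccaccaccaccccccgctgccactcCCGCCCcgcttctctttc
Pnpla3, chr15:84167566-84167815, + strand: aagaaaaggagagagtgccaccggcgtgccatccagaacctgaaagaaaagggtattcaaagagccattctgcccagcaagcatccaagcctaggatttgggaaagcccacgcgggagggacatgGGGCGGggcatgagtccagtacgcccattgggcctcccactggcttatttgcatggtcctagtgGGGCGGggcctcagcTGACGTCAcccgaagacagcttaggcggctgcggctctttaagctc
Cd36, chr5:17835897-17836146, - strand: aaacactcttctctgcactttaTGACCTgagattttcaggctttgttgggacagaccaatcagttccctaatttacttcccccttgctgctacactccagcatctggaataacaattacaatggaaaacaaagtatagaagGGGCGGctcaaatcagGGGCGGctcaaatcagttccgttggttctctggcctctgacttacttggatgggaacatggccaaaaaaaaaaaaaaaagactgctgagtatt
The table held 10 promoters for 8 of the 10 members. A member was counted if any of its promoters matched, whereas the percentages are of single promoters. The half-site was present in 3 of these (Plin2, Plin5 and Cd36), against 14.02% of all 32851 promoters of this length. The GC box was present in 5 (Plin5, Pnpla2, G0s2, Pnpla3 and Cd36), against 32.7% of all. The cAMP response element was found in Pnpla3 alone, 46 bases before its start, and is held by 1.55% of all promoters. The E-box and the forkhead motif matched no member and are held by 6.02% and 3.17% of all promoters. These are matches of letters and were not linked to binding in these mice.

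Between 22424383 and 36070835 read pairs per mouse were assigned to genes. All 8 hepatocyte markers listed passed the filter, and 1 of them, Cyp2e1, fell in Old and in PDX against Adult mice at an adjusted p under 0.05. At this threshold 6.78% and 2.66% of all tested genes were called in these comparisons. Mice O2 and O5 of the Old group stood apart in expression, which the study points out too. Their summed hepatocyte marker level was 78030 and 62846 CPM (counts per 1000000 read pairs, scaled by TMM factors), against 112829 or more in the other 13 mice. O5 lay outside the range of the other 14 mice for 54.2% of the 15808 tested genes and O2 for 32.5%. By the labels O5 had a body weight change of -3.55%, a frailty index of 0.56 and 4 positive frailty criteria, and O2 had 3.07%, 0.11 and 3. The study reports body weight change as a weekly average in percent. In O5 the 8 markers went both ways: Alb, Ttr, Apoa2 and Cyp2e1 were lowest of all 15 mice, and Hnf4a (1481 CPM) and Tat (13520 CPM) were highest. The sum is mostly Alb, at 65492 CPM in O2 and 34676 CPM in O5. The differences that O2 and O5 move are given with and without them. Times and batches of tissue collection per mouse were not given, so values within batches could not be computed.

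Plin2 was the most abundant member per kilobase of transcript in every group, and no perilipin passed the test in any comparison. The Adult mice A1 to A5 had 801, 318, 315, 435 and 349.6 CPM of Plin2. The Old mice O1 to O5 had 458, 218, 519.5, 308 and 328 CPM, and the PDX mice P1 to P5 had 361, 457, 464, 458 and 409 CPM. The 3 groups overlapped, A1 was the highest of all mice and O2 the lowest. The PDX mice spanned 1.29-fold from lowest to highest, against 2.55-fold among Adult and 2.39-fold among Old mice; the difference in spread was not tested. On the log2 scale, the fold change was -0.28 in Old against Adult mice (95% interval -0.86 to 0.31), 0.23 in PDX against Old (-0.36 to 0.82) and -0.05 in PDX against Adult (-0.63 to 0.54). Each interval includes 0. Without O2 and O5 these values were -0.037 (-0.63 to 0.55), 0.011 (-0.58 to 0.60) and -0.027 (-0.54 to 0.48). Plin2 accounted for 84.7% ± 4.5 (SD, n = 15) of the perilipin transcripts per length, Plin5 for 8.21% ± 3.94 and the non-member Plin3 for 6.63% ± 1.72. Plin2 spans 86648386 to 86670060 on chromosome 4 in GRCm38.

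Plin5 lay between 28.2 and 52.4 CPM in the Adult and PDX mice. In the Old mice it was measured at 35.4, 18.8, 45.1, 32.1 and 96.0 CPM in O1 to O5. O5 was the highest and O2 the lowest of all 15 mice, and the other 3 Old mice lay within the Adult range. Old against Adult mice gave a log2 fold change of 0.27 (95% interval -0.43 to 0.97) with all mice and 0.00 (-0.43 to 0.44) without O2 and O5. In O5, Plin5 made up 20.3% of the perilipin transcripts per length, the highest share of any mouse.

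Plin4 was a low-level gene, at 2.95, 3.73, 8.16, 3.22 and 2.35 CPM in the Adult mice and 3.00, 5.98, 1.73, 1.96 and 3.30 CPM in the PDX mice. The Old mice O1 to O4 had 1.61, 2.22, 2.18 and 2.71 CPM, and O5 had 38.2 CPM, which was 17.3-fold the median of the other 4. O1 to O4 all lay below the Adult median of 3.22 CPM. Old mice differed from Adult mice by a log2 fold change of 1.21 (95% interval -0.49 to 2.90, adjusted p = 0.342 by edgeR's quasi-likelihood test) with O5 and -0.89 (-1.85 to 0.08, adjusted p = 0.244) without O2 and O5, and -0.89 without O5 alone, so 1 mouse set its sign. PDX mice differed from Old mice by -1.56 (-3.27 to 0.16) with all mice and by 0.55 (-0.41 to 1.51) without O2 and O5. Plin4 and Plin5 are neighbours on chromosome 17 on the - strand, at 56100591 to 56109803 and 56111601 to 56117596 in GRCm38. The span of Plin4 overlaps Hdgfl2 on the other strand, and reads were counted by strand.

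**Figure D1:**
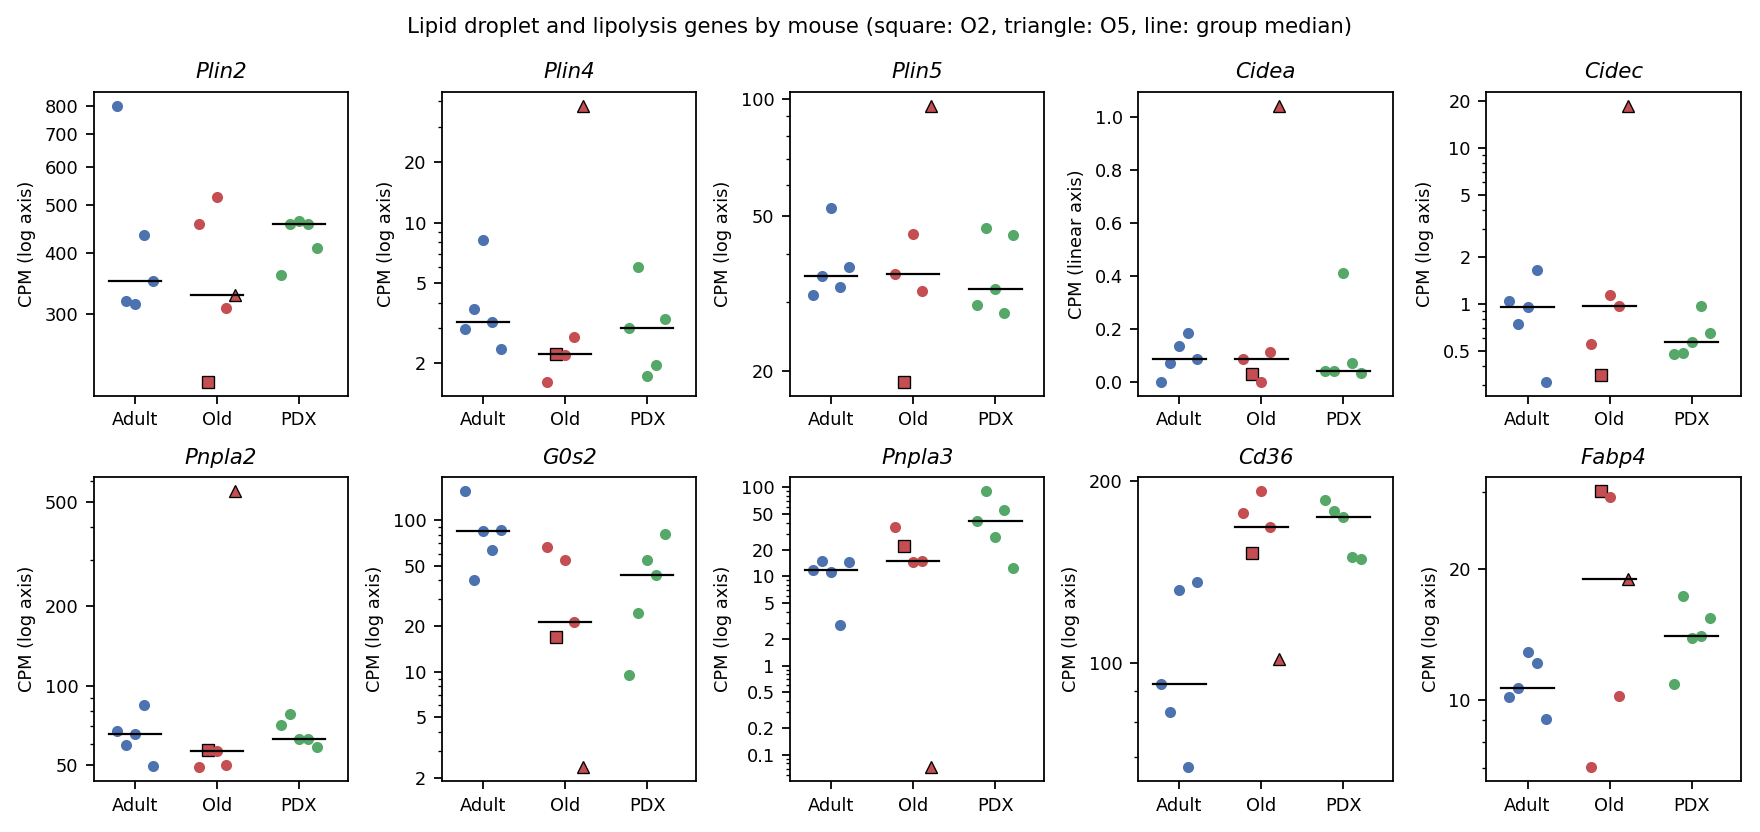
Each panel plots 1 gene in TMM-scaled CPM for each of the 15 mice, by group, on a log axis except for Cidea; squares mark O2, triangles O5 and lines the group medians. O5 is the highest mouse for Plin4, Plin5, Cidea, Cidec and Pnpla2 and the lowest for G0s2 and Pnpla3, while all 5 PDX mice lie above all 5 Adult mice for Cd36.

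Both CIDE genes were low in 14 of the 15 mice and high in O5. Cidea, which lies at 67343604 to 67367785 on chromosome 18 in GRCm38, had 0 to 5 counts in the Adult mice, 0 to 3 in O1 to O4, 1 to 13 in the PDX mice and 29 in O5, the last equal to 1.04 CPM. It failed the filter and was not tested. Cidec had 1.04, 0.739, 0.957, 1.65 and 0.315 CPM in the Adult mice and 0.473, 0.481, 0.567, 0.964 and 0.653 CPM in the PDX mice. In O1 to O4 it had 0.552, 0.350, 1.13 and 0.965 CPM, and in O5 it reached 18.6 CPM, from 516 counts, or 24.5-fold the median of the other Old mice. The 3 groups overlapped, and O5 stood alone. Its log2 fold change was 2.20 in Old against Adult mice (95% interval 0.26 to 4.14, unadjusted p = 0.0288, adjusted p = 0.133 by edgeR) and -2.77 in PDX against Old (-4.77 to -0.77, unadjusted p = 0.00987, adjusted p = 0.793 by edgeR). These values without O2 and O5 were -0.07 (-1.001 to 0.87) and -0.48 (-1.43 to 0.46). Cidec spans 113424634 to 113435760 on chromosome 6.

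The summed level of the 8 adipocyte markers was 9.91 CPM in O5, the lowest of the 15 mice, against 18.2 to 39.1 CPM in the others. Most of this sum was Lipe, at 9.26 CPM in O5, a gene that is also counted among the lipases below. Adipoq, Lep, Retn and Plin1, which define fat cells, were each at 0 counts in O5, but they were at no more than 1.00 CPM in any mouse, and Lep was also at 0 in A1, O1, O2, O4, P1, P2, P4 and P5 and Plin1 in O1. Of the 8 adipocyte markers 3 passed the filter, and none of these was called in any comparison.

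Pnpla2, which encodes ATGL, varied little in 14 mice and was about 10-fold higher in O5. It was measured at 67.3, 59.2, 65.4, 84.5 and 49.6 CPM in the Adult mice and at 71.0, 78.0, 62.6, 62.7 and 58.2 CPM in the PDX mice. The Old mice O1 to O4 had 48.8, 56.7, 56.6 and 49.8 CPM and O5 had 549 CPM, from 15237 counts, which was 10.3-fold the median of the other Old mice. With O5 set aside after its value was seen, O1 to O4 lay below every PDX mouse, at no more than 56.7 against at least 58.2 CPM. The share of all genes that do so was not computed. With O5 the Old and PDX mice overlapped. The values of O1 to O4 overlapped those of the Adult mice. PDX against Old mice gave a log2 fold change of -1.20 (95% interval -2.46 to 0.07, adjusted p = 0.793) with all mice and 0.37 (0.05 to 0.68, unadjusted p = 0.0260, adjusted p = 0.464 by edgeR) without O2 and O5. Against the Adult mice, Old mice differed by 1.22 (-0.04 to 2.49) with all mice and by -0.32 (-0.64 to -0.01) without O2 and O5, again with no call. The gene lies at 141455198 to 141460743 on chromosome 7 in GRCm38, and no other annotated gene overlaps it.

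G0s2, the inhibitor, had a mean of 85.9 ± 42.9 CPM (SD, n = 5) in Adult, 32.3 ± 27.0 CPM in Old and 42.5 ± 27.5 CPM in PDX mice. In order, Adult mice had 155, 40.1, 84.8, 63.4 and 86.2 CPM, Old mice 66.6, 17.0, 54.4, 21.4 and 2.34 CPM, and PDX mice 9.58, 24.5, 54.3, 43.2 and 81.0 CPM. O5 was the lowest of all, at 65 counts, 16.2-fold under the median of the other Old mice, while P1 was the lowest of the PDX mice. All 5 Old mice lay below the Adult mean, but the groups overlapped. The log2 fold change was -1.41 in Old against Adult (95% interval -2.86 to 0.04, adjusted p = 0.190 by edgeR) and -1.01 in PDX against Adult (-2.45 to 0.42, adjusted p = 0.416). Without O2 and O5 it was -0.84 (-2.07 to 0.38) and -0.99 (-2.03 to 0.05). PDX and Old mice differed by 0.40 (-1.03 to 1.82) with all mice and by -0.15 (-1.34 to 1.04) without both. G0s2 spans 193272161 to 193273217 on chromosome 1 and overlaps Lamb3 on the other strand, a gene with 64 to 147 counts per mouse.

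The ratio of Pnpla2 to G0s2 per kilobase sets the lipase beside its inhibitor within each mouse. The log2 ratio was -2.79, -1.03, -1.97, -1.18 and -2.39 in the Adult mice, so the inhibitor was the more abundant transcript in each. It was -2.04, 0.15, -1.53, -0.37 and 6.28 in the Old mice and 1.30, 0.08, -1.39, -1.05 and -2.07 in the PDX mice. The lipase exceeded the inhibitor in O2, O5, P1 and P2 and in no Adult mouse, and in O5 it did so 77.8-fold. The mean was -1.87 ± 0.76 (SD, n = 5) in Adult, 0.50 ± 3.35 in Old and -0.63 ± 1.33 in PDX mice. Old and Adult mice differed by 2.37 (p = 0.0952, adjusted over 3 comparisons 0.179, two-sided exact permutation test), PDX and Adult by 1.25 (p = 0.119, adjusted 0.179, same exact test) and PDX and Old by -1.12 (p = 0.651 in the exact test). With 5 against 5 mice the smallest p this test can give is 0.00794. The Old values rested on O5: without it the Old and Adult means differed by 0.92, and the PDX and Old means by 0.32 in the other direction.

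**Figure D2:**
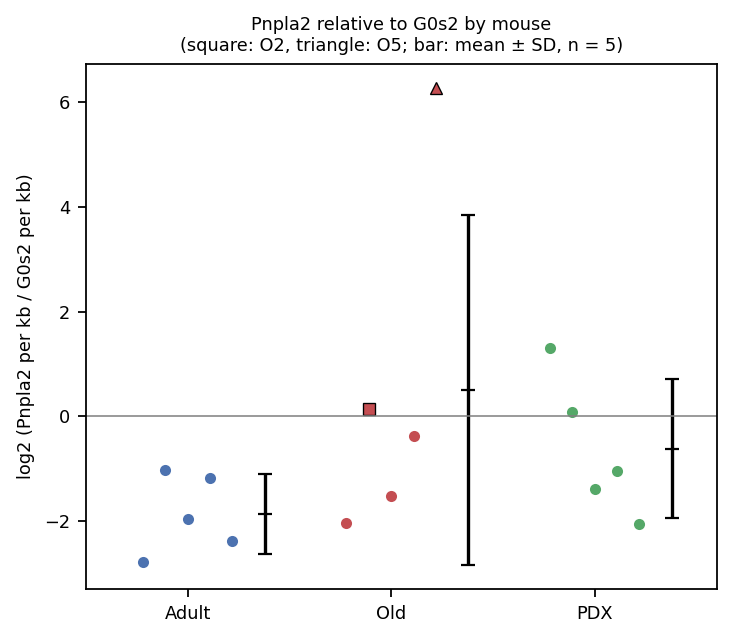
The log2 ratio of Pnpla2 to G0s2, each per kilobase of transcript, is plotted for each mouse by group, with bars for mean ± SD (n = 5); the square is O2 and the triangle O5. The Adult mice lie between -2.79 and -1.03, all below 0, and O5 at 6.28 lies far above the rest.

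For Pnpla3, 4 of the 5 PDX mice and 3 of the 5 Old mice lay above every Adult mouse. Adult mice had 11.9, 14.8, 11.2, 2.85 and 14.6 CPM, Old mice 36.0, 21.8, 14.6, 14.9 and 0.0720 CPM, and PDX mice 42.1, 90.3, 27.4, 55.6 and 12.3 CPM. In O5 only 2 counts of the gene were found, and A4 was the lowest of the other mice with 78 counts. PDX against Adult mice gave a log2 fold change of 2.04 (95% interval 0.34 to 3.74, unadjusted p = 0.0221, adjusted p = 0.166 by edgeR). Without O2 and O5 it was 2.05 (0.98 to 3.13) with an adjusted p of 0.00950 by edgeR, so the size stayed and the interval narrowed. O2 and O5 are in neither of these groups, but all 3 groups share the estimate of the spread. Over all tested genes, 24.6% were called in that fit, against 2.66% with all mice. Old mice differed from Adult mice by 0.66 (-0.998 to 2.32), and by 0.99 (-0.20 to 2.18) without O2 and O5. PDX mice differed from Old mice by 1.38 (-0.29 to 3.05, adjusted p = 0.793), and by 1.06 (-0.17 to 2.30, adjusted p = 0.638 by edgeR) without both. Pnpla3 spans 84167837 to 84187236 on chromosome 15 and shares bases on its own strand with Mir6392 and Gm49513, which had at most 40 and 6 counts in any mouse.

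A4, the Adult mouse with the lowest Pnpla3 value, also stood apart from the other Adult mice in circadian clock genes. The summed level of 11 circadian clock genes was 820 CPM in A4 and 284 to 488 CPM in the other Adult mice, and 832 CPM in O5. Among PDX mice it ranged from 179 to 279 CPM and among O1 to O4 from 161 to 520 CPM. A1 and O3, with sums of 488 and 520 CPM, had 11.9 and 14.6 CPM of Pnpla3. Dbp and Arntl, genes of opposite phase chosen here after their values were seen, stood at 189 and 2.45 CPM in A4, against at most 40.5 and at least 28.9 CPM in the other Adult mice. In O5 they stood at 20.8 and 59.5 CPM, so Arntl was the highest of all 15 mice there and the lowest in A4, and most of the sum in O5 came from Per1 at 275 CPM and Tef at 211 CPM. None of the 11 was called in any comparison, and the part of time of day in the values of Pnpla3 was not tested.

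Cd36 was the member whose PDX and Adult mice did not overlap. It was measured at 92.6, 83.1, 132, 67.4 and 136 CPM in the Adult mice, at 177, 152, 192, 168 and 102 CPM in the Old mice and at 186, 178, 175, 149.97 and 149 CPM in the PDX mice. All 5 PDX mice lay above all 5 Adult mice, and so did all Old mice except O5. The log2 fold change was 0.63 in Old against Adult mice (95% interval 0.19 to 1.07, unadjusted p = 0.00775, adjusted p = 0.0691 by edgeR) and 0.71 in PDX against Adult (0.27 to 1.15, unadjusted p = 0.00348, adjusted p = 0.0774 by edgeR). The same values without O2 and O5 were 0.82 (0.41 to 1.232, adjusted p = 0.0228 by edgeR) and 0.73 (0.37 to 1.09, adjusted p = 0.00726). In that fit 7.12% and 24.6% of all tested genes were called in these comparisons, against 6.78% and 2.66% with all mice. PDX and Old mice differed by 0.08 (-0.36 to 0.52), an interval that holds 0 and reaches up to 0.52. Cd36 spans 17781690 to 17888801 on chromosome 5.

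Fabp4 was at 10.2, 10.7, 12.9, 12.1 and 9.06 CPM in the Adult mice, a 1.42-fold range that was the smallest of the members in that group. Old mice had 7.003, 30.2, 29.2, 10.2 and 18.9 CPM and PDX mice 10.9, 17.3, 13.9, 13.99 and 15.4 CPM. O2 and O3 were the highest of all mice and O1 the lowest, so the Old group enclosed both others. Fitted log2 fold changes were 0.80 in Old against Adult mice (95% interval 0.12 to 1.48, unadjusted p = 0.0236, adjusted p = 0.119 by edgeR), 0.38 in PDX against Adult (-0.30 to 1.06) and -0.42 in PDX against Old (-1.09 to 0.25). For Old against Adult the value without O2 and O5 was 0.51 (-0.20 to 1.22). Fabp4 spans 10204088 to 10208576 on chromosome 3.

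Macrophages and endothelium also express Cd36 and Fabp4, and fewer cells of a type cannot be told apart from less RNA per cell in bulk liver. The summed level of 8 macrophage markers was 475 to 736 CPM in Adult, 363 to 3664 CPM in Old and 901 to 2052 CPM in PDX mice. PDX and Adult mice did not overlap in this sum, nor did they for 19.9% of all tested genes taken singly. O2 was the mouse at 3664 CPM and had Cd36 at 152 CPM, and O3 was at 1058 CPM and had Cd36 at 192 CPM. None of the 8 was called in Old against Adult or PDX against Adult, and all 8 had a positive log2 fold change in both. Of the 8, 7 were highest of all mice in O2 and 5 were lowest in O5, beside 3182 and 4480 of all 15808 tested genes. Without O2 and O5 the Old sums were 639 to 1058 CPM. Of 6 markers of lipid-associated macrophages, 5 rose in Old against Adult mice (Trem2, Cd63, Gpnmb, Cd9 and Mmp12) and 3 in PDX against Adult (Spp1, Gpnmb and Mmp12), beside 4.71% and 1.76% of all tested genes that rose. The sums of these 6 markers were 54.7 to 64.1 CPM in Adult, 98.2 to 231 CPM in Old and 97.4 to 169.9 CPM in PDX mice. This list was chosen with earlier results of these data known. Endothelial markers summed to 302 to 335 CPM in Adult, 193 to 334 CPM in Old and 265 to 341 CPM in PDX mice, with 0 of 9 called in each comparison. Stellate cell markers summed to 574 to 631, 474 to 622 and 440 to 662 CPM in the same order, where Des rose in Old and Ecm1 fell in Old and in PDX against Adult mice. Of all tested genes, 6.78% were called in Old and 2.66% in PDX against Adult mice. The part of these cell types in the values of Cd36 and Fabp4 was not tested.

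**Figure D3:**
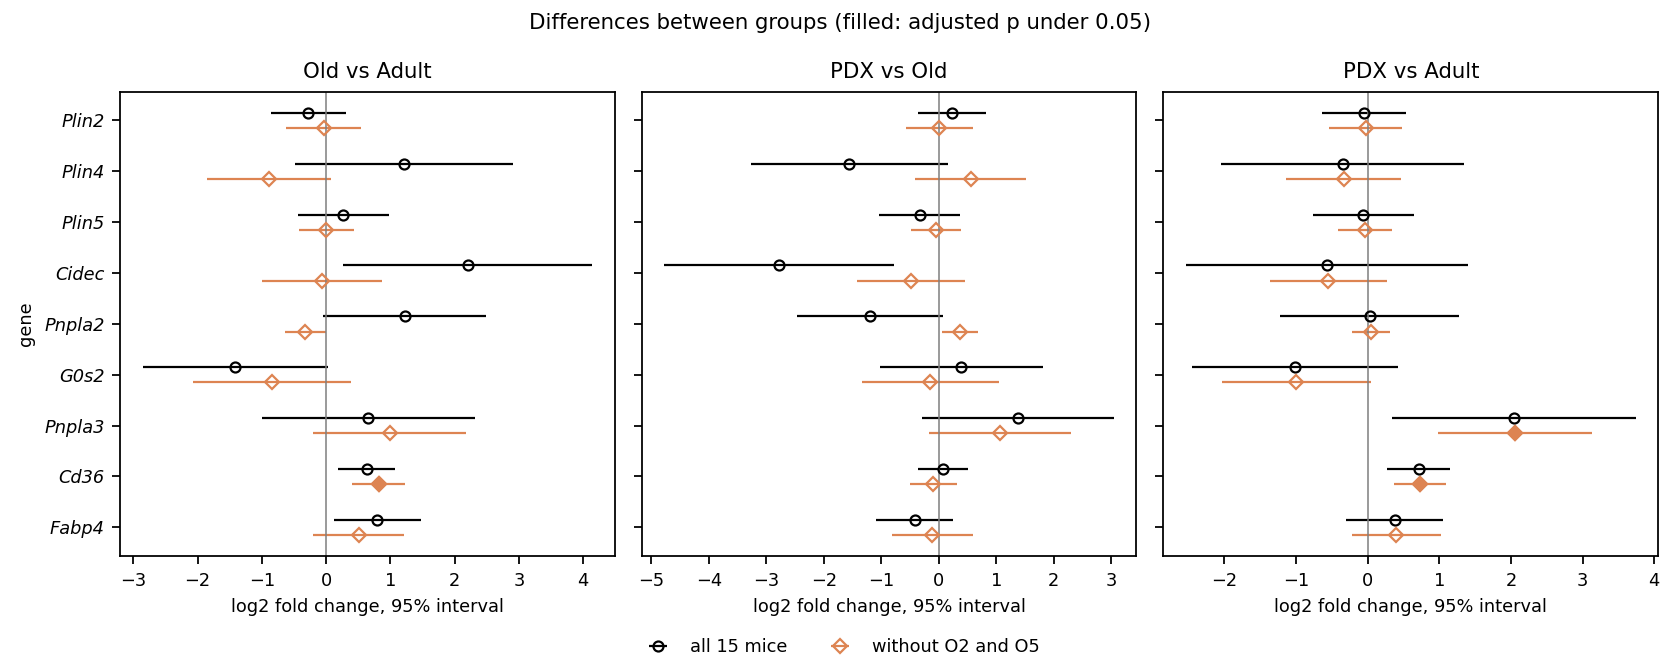
The log2 fold change of each of the 9 tested members is plotted with its 95% interval in the 3 comparisons, with all 15 mice (black circles) and without O2 and O5 (orange diamonds), and filled symbols passed an adjusted p of 0.05. Cd36 and Pnpla3 lie to the right of 0 against Adult mice in both fits, whereas Plin4, Cidec and Pnpla2 lie to the right in Old against Adult mice with all mice and to the left without O2 and O5.

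Counted over the list, 0 of the 9 tested members were called at an adjusted p under 0.05 by edgeR in Old against Adult mice, where 6.78% of all tested genes were called. The count was also 0 of 9 in PDX against Old mice, where 0% were called at this threshold and at 0.25, and 0 of 9 in PDX against Adult mice, where 2.66% were called. At an unadjusted p under 0.05 there were 3 members (Cidec, Cd36 and Fabp4) in Old against Adult mice, 1 (Cidec) in PDX against Old and 2 (Pnpla3 and Cd36) in PDX against Adult, beside 27.7%, 5.28% and 20.6% of all tested genes. The median log2 fold change over the 9 members, with all mice, was 0.66, -0.33 and -0.05 in these comparisons. Over all tested genes it was 0.07, -0.07 and -0.01. The median of 0.66 depends on O2 and O5: without them Plin4, Cidec and Pnpla2 turned from positive to negative in Old against Adult mice. No member separated Old from Adult or PDX from Old mice without overlap, as 8.13% and 0.342% of all genes did, and 1 of 9 (Cd36) separated PDX from Adult mice, as 19.9% did. With 9 members tested, these counts are close to the shares of all genes.

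Without O2 and O5, 1 of 9 members was called in Old against Adult mice (Cd36; 7.12% of all genes), 0 in PDX against Old (0%) and 2 in PDX against Adult (Pnpla3 and Cd36; 24.6%). Without O5 alone the same members were called, 1 and 2, among 13.2% and 10.9% of all genes. Without O2 alone Cd36 was called in PDX against Adult mice (11.1% of all), and without O1 alone Fabp4 was called in Old against Adult mice (log2 fold change 1.02, adjusted p = 0.0288 by edgeR; 9.85% of all). With DESeq2 on all mice, Cd36 was called in Old against Adult (adjusted p = 0.0306; 14.1% of all) and in PDX against Adult (adjusted p = 0.0215; 7.7% of all), and limma on the deposited values called no member. When only Adult and PDX mice entered the fit, Pnpla3, Cd36 and Fabp4 were called, among 29.6% of all genes.

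O5 lay outside the range of the other 14 mice for 7 of the 10 members, 5 of them above it and 2 below, and for 6 of the 9 that were tested, beside the 54.2% given above for all genes. O2 lay outside it for 3 members: Plin2 and Plin5 were lowest and Fabp4 highest there. O5 also stood apart for other genes of lipid storage and use, to a degree that differed between lists. Of 15 tested lipases and cofactors, 12 were lowest in O5 and 1 was highest, beside 28.3% of all tested genes that were lowest there. Of 17 coat and assembly genes 10 were lowest and 5 highest, and of 14 uptake, activation and binding genes 6 and 2. Of 11 nuclear receptors and cofactors 3 were lowest and 4 highest, and of 12 PPAR alpha targets 2 and 2. The low lipases included, chosen after their values were seen, Lipe (hormone-sensitive lipase) at 9.26 CPM, Lipc (hepatic lipase) at 15.2 CPM and Abhd5, the activator of ATGL, at 18.0 CPM. Fabp1, the main fatty acid binding protein of liver, was at 4.25 CPM in O5 and at 1183 to 3959 CPM in the other mice. Acute-phase genes summed to 49651 CPM in O5, against 8060 to 9552 CPM in Adult, 10820 to 25330 CPM in the other Old and 15077 to 51949 CPM in PDX mice, and 4 of 8 rose in Old against Adult and 6 of 8 in PDX against Adult mice, beside 4.71% and 1.76% of all tested genes. The acute-phase list was chosen with earlier results of these data known, and the part of these shifts in the values of the members was not tested.

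The levels per kilobase of transcript gave an order of the members in each group. In Adult mice the medians ran from Plin2 at 185 CPM per kb through G0s2 at 97.4, Cd36 at 27.2, Pnpla2 at 24.9, Plin5 at 17.7, Fabp4 at 11.9 and Pnpla3 at 9.05 to Plin4 and Cidec at 0.559 and 0.556 and Cidea at 0.0772. Plin2 exceeded G0s2 within each of the 5 Adult mice although the ranges of the groups overlapped, and G0s2 exceeded Cd36 without overlap. Ranges overlapped between the neighbours Cd36 and Pnpla2, Pnpla2 and Plin5, Fabp4 and Pnpla3, and Plin4 and Cidec, and not between Plin5 and Fabp4, Pnpla3 and Plin4, or Cidec and Cidea. By median, Cd36 stood second in Old and PDX mice, at 49.5 and 51.4 CPM per kb against 24.6 and 49.6 for G0s2, but the ranges overlapped and Cd36 was above G0s2 in only 3 of 5 Old and 2 of 5 PDX mice. In PDX mice Pnpla3 took the fourth place at 32.1 CPM per kb, although its range overlapped that of Pnpla2.

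The other genes of droplet metabolism were examined in 5 lists of 71 genes, of which 69 were tested. In Old against Adult mice 2 rose and 5 fell, in PDX against Adult mice 1 rose and 5 fell, and in PDX against Old mice none was called by edgeR, DESeq2 or limma, with 3 genes at an unadjusted p under 0.05 in edgeR. Without O2 and O5 the calls were 3 higher and 11 lower, 6 higher and 29 lower, and 0. These calls are to be read against the shares of all genes given above for the same fits. Most of these calls lay close to the threshold and were lost when single mice were left out. So were most calls over the whole table. In Old against Adult mice, 1072 genes were called with all mice and between 156 and 243 without any 1 Adult mouse. In PDX against Adult mice, 420 were called with all mice. Between 166 and 206 were called without any 1 Adult mouse, and between 172 and 262 without any 1 of P1 to P4. In Old against Adult mice, the calls of Lpl (1.68 to 1.79), Acsl1 (-1.10 to -1.03), Slc27a5 (-0.98 to -0.94), Hilpda (1.71 to 2.05) and Ces3b (-1.58 to -1.36) were lost without any 1 of A1 to A5, with the log2 fold changes given in brackets. Ces3b also lost its call without O2 (-1.46), Hilpda without O2 (1.94) or any 1 of P1 to P4 (1.83 for each), and Lpl without O2 (0.81) or any 1 PDX mouse (1.76 for each). In PDX against Adult mice, Nr1i3 (-1.16 to -0.92) and Fabp5 (1.93 to 2.34) lost their calls without any 1 Adult mouse, Nr1i3 (-1.13 to -0.93) and Fabp5 (1.70 to 2.25) also without any 1 of P1 to P4, and Fabp5 without O1 (2.11), O3 or O4 (2.10 for both). Acsl1 lost its call there without P1 (-1.19) or P2 (-1.22), and Acot1 without P1 (-2.24).

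Among the other coat and assembly genes (17 tested), Hsd17b11, a droplet-bound dehydrogenase, fell by 1.17 on the log2 scale in Old mice (adjusted p = 0.00675 by edgeR) and by 1.10 in PDX mice (adjusted p = 0.00730), both against Adult. All 5 Adult mice, at 194 to 225 CPM, lay above all Old mice at 66.6 to 125 CPM and all PDX mice at 69.6 to 124 CPM, and the call held under each of 24 alternatives in both comparisons. Hilpda, an inhibitor of ATGL like G0s2, rose by 1.84 in Old mice (adjusted p = 0.0412 by edgeR), with 13.4 CPM in O5 and 1.93 to 3.42 CPM in the other Old mice against 0.845 to 2.08 CPM in Adult mice. Without O2 and O5 its value was 0.82 and was not called. In PDX against Old mice the smallest p in this list was that of Lpin1, a phosphatidate phosphatase, at a log2 fold change of 1.31 and an adjusted p of 0.793.

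Among the other lipases and cofactors (15 tested), Lpl, which frees fatty acids from circulating triglyceride, rose by 1.76 in Old against Adult mice (adjusted p = 0.0471 by edgeR). O2 was at 198 CPM, the other Old mice at 21.0 to 51.4 CPM and the Adult mice at 15.6 to 22.0 CPM, and without O2 alone the value was 0.81 and was not called. Ces3b, a carboxylesterase of hepatocytes, fell by 1.48 (adjusted p = 0.0340). Pnpla5, a relative of Pnpla3, had the smallest p of the list in PDX against Adult mice, with a log2 fold change of 4.03 and an adjusted p of 0.0580, and like Pnpla3 it was lowest in O5, at 0 CPM. Abhd5 had the smallest p in PDX against Old mice, at 0.49 with an adjusted p of 0.793.

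Among the genes of fatty acid uptake, activation and binding (14 tested), Slc27a5, a bile acid and fatty acid ligase, fell by 0.95 in Old mice (adjusted p = 0.0216 by edgeR). Acsl1, the main hepatic acyl-CoA synthetase, fell by 1.08 in Old (adjusted p = 0.0264) and by 1.25 in PDX mice (adjusted p = 0.0156), both against Adult. Fabp5, which like Fabp4 is found in macrophages, rose by 2.10 in PDX against Adult mice (adjusted p = 0.0488). It had the smallest p in PDX against Old mice too, at 0.88 with an adjusted p of 0.793. Of the 14 genes 12 had negative log2 fold changes in Old and 12 in PDX mice against Adult. The values of Cd36 and Fabp4 were positive in both; that difference from the list was not tested.

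Nuclear receptors and cofactors gave 1 call among 11 tested genes: Nr1i3, the receptor CAR, fell by 1.04 in PDX against Adult mice (adjusted p = 0.0432 by edgeR). Nr1i2 and Pparg had the smallest p in Old against Adult and PDX against Old mice, with adjusted p of 0.0526 and 0.793. Among 12 other PPAR alpha targets, Ehhadh, an enzyme of peroxisomal beta-oxidation, fell by 1.32 in Old (adjusted p = 0.0151 by edgeR) and by 1.55 in PDX mice (adjusted p = 0.00577) against Adult. Acot1, an acyl-CoA thioesterase, fell by 2.38 in PDX against Adult mice (adjusted p = 0.0162) and had the smallest p in PDX against Old mice, at -1.13 with an adjusted p of 0.793. The median of this list was -0.77 in Old and -0.80 in PDX against Adult mice, beside 0.07 and -0.01 for all genes. The 9 tested members went both ways with all mice: 7 were positive and 2 negative in Old, and 4 positive and 5 negative in PDX against Adult mice. Without O2 and O5, Plin4 (-0.89), Cidec (-0.07) and Pnpla2 (-0.32) turned negative in Old against Adult mice. The values that follow are with all mice. Cd36, itself a PPAR target, had 0.63 and 0.71, whereas G0s2 had -1.41 and -1.01 and Plin2 -0.28 and -0.05.

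**Figure D4:**
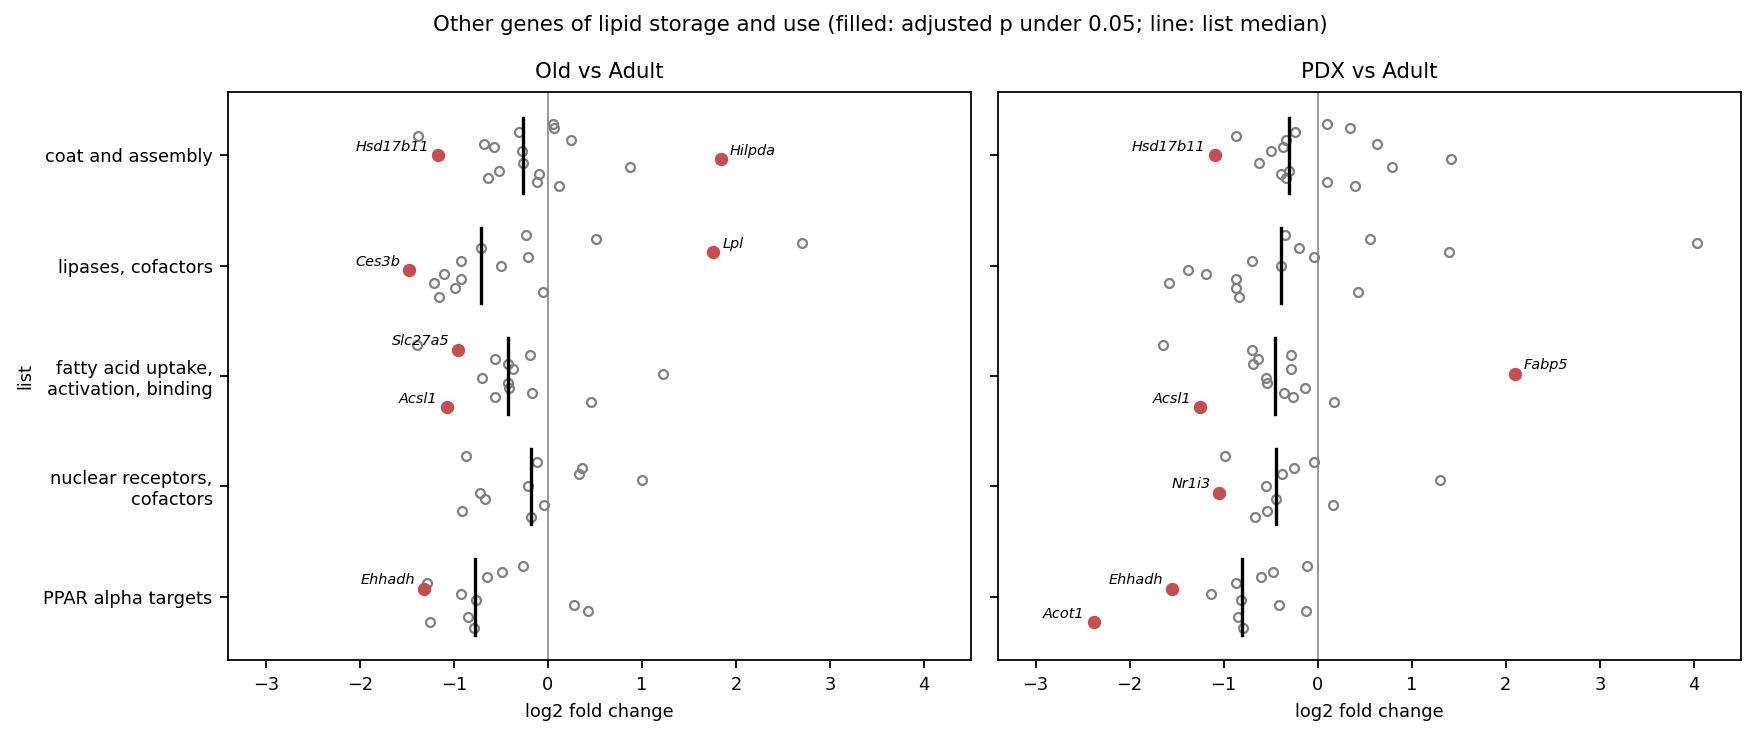
The log2 fold change of each tested gene of the 5 lists is plotted for Old against Adult and for PDX against Adult mice, with filled points for an adjusted p under 0.05 and a line at each list's median. The 5 medians lie below 0 in both comparisons, and Hsd17b11, Acsl1 and Ehhadh are called in both.

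The genes whose levels followed a member most closely over the 15 mice were found by Spearman correlation of log2 CPM, as a description of libraries that differ in depth and composition. For Cd36 these were AC165327.2 (rho = 0.91) and Cdh19 (0.90), and for Pnpla3 Gm36325 (0.96) and Vtcn1 (0.95). For Pnpla2 they were Elk4 (0.90) and Zfp112 (0.84), and for G0s2 Gm12909 (0.93) and Gm21370 (0.92). Plin2 was followed by A430033K04Rik (0.83) and Abhd1 (0.80), Plin4 by Slc35g1 (0.92) and Rad54l2 (0.91), Plin5 by Morf4l1-ps1 (0.84) and 1810013D15Rik (0.81), Cidec by 4833418N02Rik (0.89) and Zbed5 (0.86), and Fabp4 by E330020D12Rik (0.93) and Galnt15 (0.93). No member was among the nearest genes of another. Between members, rho was highest for Pnpla3 and Cd36, at 0.71, and for Plin4 and Pnpla2, at 0.64, and lowest for Cidec and Pnpla3, at -0.58.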

How the data were processed

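Poly(A) RNA of 15 livers was sequenced as stranded read pairs. Per the labels and the methods of the study, the authors aligned reads to mm10 (GRCm38) with STAR 2.6.0c and counted them against Ensembl 100 genes with featureCounts (Subread 1.6.2), keeping uniquely placed, proper, non-mitochondrial pairs. The deposited files hold these counts, which are not normalized, and variance-stabilized values on a log2 scale that the authors made with DESeq2 1.23.10. Symbols and gene positions were taken from GENCODE M21, which matched 55190 of 55450 IDs; levels per kilobase (1000 bases) use the longest protein-coding transcript there. The 10 members and all gene lists were chosen with earlier results of these data known.

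Counts were filtered with filterByExpr (minimum count 10, minimum total 15), scaled by TMM and tested with the quasi-likelihood test of edgeR 4.0.16 in R 4.3.3, with all 15 mice in 1 fit, no covariates and Benjamini-Hochberg adjustment over all 15808 tested genes; an adjusted p under 0.05 was called. Fold changes are on the log2 scale and intervals are 95%. Each library is 1 mouse. Total counts of 22424383 to 36070835 per mouse mean that genes such as Cidea, at 0 to 29 counts, carry a large counting error. On simulated counts with 200 genes changed by 1 or 2 on the log2 scale, the script recovered 73 and 163 of them in 77 and 169 calls for Old against Adult. The ratio of Pnpla2 to G0s2 was tested by exact two-sided permutation in Python 3.11.15.

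The alternatives were DESeq2 1.42.0, limma 3.58.1 on the deposited log2 values, RLE and upper-quartile factors, no low-count filter and a minimum count of 50, fits of only the compared groups, a replicate block, and fits without each mouse and without O2 and O5. Those for the pathway genes were added after seeing the data. The text names all members; of each pathway list the called genes or, where none was called, the gene with the smallest p; of each marker list its counts and sums; and the 2 genes nearest to each member. Promoters were read from RefSeq (GRCm38.p6).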

Additional observations from a re-analysis of the deposited data

Results flagged for a closer look

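A gap test on the highest and lowest mouse was run in 30 groups of 5 mice (9 members and the ratio of Pnpla2 to G0s2, 3 groups each, on log2 values), where the critical share of the range is 0.71. It singled out 6 of them, where the nominal rate of the test is about 1 in 20. No share over all genes was computed for this test, so the count is not a result about the members. O5 lay outside the range of the other 14 mice for 54.2% of all tested genes. In 5 of the 6 the mouse was O5 of the Old group. O5 was high for Plin4, where its gap to the next mouse was 0.839 of the range of the group, for Cidec (0.724), for Pnpla2 (0.938) and for the log2 ratio of Pnpla2 to G0s2 (0.737), and it was low for Pnpla3 (0.838). The sixth was A4 of the Adult group, low for Pnpla3 (0.832). These values share mice and are not independent of each other. What set O5 or A4 apart was not tested.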

How the results depend on the processing

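Of 636 recomputed log2 fold changes of members with an adjusted p (27 values, 24 alternatives), 595 kept their direction and their side of the threshold, 13 became significant, 0 lost significance and 28 changed sign. None of the 28 was significant, in either fit. Leaving out O2 and O5 turned Old against Adult to -0.89 for Plin4, -0.065 for Cidec and -0.32 for Pnpla2, and PDX against Old to 0.55 for Plin4, 0.37 for Pnpla2, -0.15 for G0s2 and -0.092 for Cd36. Limma on the deposited values turned Pnpla3 in Old against Adult to -0.040 and Plin2 in PDX against Adult to 0.048. With 1 mouse left out at a time, the values that changed sign ranged, in Old against Adult, from -0.44 to 0.052 for Plin2, -0.89 to 1.61 for Plin4, -0.20 to 0.47 for Plin5, -0.33 to 2.54 for Cidec and -0.30 to 1.49 for Pnpla2. In PDX against Old they ranged from -1.91 to 0.54 for Plin4, -0.52 to 0.14 for Plin5, -1.46 to 0.33 for Pnpla2 and -0.042 to 0.16 for Cd36. In PDX against Adult they ranged from -0.15 to 0.29 for Plin2, -0.70 to 0.057 for Plin4, -0.16 to 0.087 for Plin5 and -0.058 to 0.14 for Pnpla2. In Old against Adult and PDX against Old the turns for Plin4, Plin5, Cidec, Pnpla2 and Cd36 came without O5.

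The count of members called was 0 with all mice in each comparison. In Old against Adult it was 1 with DESeq2 and 1 without O2 and O5, and 0 to 1 with 1 mouse left out. In PDX against Adult it was 1 with DESeq2, 3 with only the compared groups and 2 without O2 and O5, and 0 to 2 with 1 mouse left out. In PDX against Old it was 0 under each alternative run. DESeq2 gave no adjusted p for Plin4, Cidec and Pnpla2, and a minimum count of 50 removed Cidec. Genes called over the whole table in Old against Adult, 1072 in the edgeR fit, ranged from 105 with only the compared groups to 2642 with DESeq2, and in PDX against Adult, 420 in that fit, from 166 without A5 to 4529 with only the compared groups; the cause was not tested. Called pathway genes kept their direction in all 312 recomputed values and passed the threshold in 229. Their number in Old against Adult, 7 with all mice, ranged from 1 with only the compared groups to 20 without O5, and in PDX against Adult, 6 with all mice, from 2 without P1 to 41 with only the compared groups.

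The difference in the log2 ratio of Pnpla2 to G0s2 was not significant under any alternative. In PDX against Old it turned to 0.69 without O2 and O5 and ranged from -1.76 to 0.32 with 1 mouse left out. A replicate block by mouse number called 0 members in each comparison and turned Plin2 in PDX against Adult to 0.047; over the whole table it called 237 genes in Old against Adult and 316 in PDX against Adult. The numbers do not pair the mice: same-numbered mice correlated at a mean of -0.17, 0.09 and 0.03 in the 3 comparisons, and 0, 2 and 2 of 5 mice correlated best with their own number. With 5 pairs the block on the ratio, an exact sign-flip test, cannot go below p = 0.0625. Depth limits Cidea and Cidec, whose counts outside O5 were at most 13 and 45.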
